A study of Mus musculus with 2 samples.

Results

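The cells described here are macrophages of mouse epididymal fat that carried several of 7 genes seldom read in the macrophages around them: Cpe, Hmga2, Sox4, Pcp4l1, Rasgrp3, Map2 and Pcdh7. A cell was a member if at least 3 of these 7 genes were on, meaning at or above 50 CPM, its reads per 1000000 reads of the cell. It also had to have at least 3 of Adgre1, C1qa, C1qb, C1qc, Csf1r and Mrc1 on, less than 300 CPM summed over Lum, Dpt, Cdh5 and Cd3g, fewer than 3 of the proliferation genes Mki67, Top2a, Ube2c and Prc1 on, and at most 25% of its reads from mitochondrial genes. The rule found 420 members, which was 14.2% (95% Clopper-Pearson interval 12.97 to 15.5%) of the 2956 non-cycling macrophages and 3.99% of the 10521 cells within the mitochondrial limit. The other 2536 non-cycling macrophages are called the others below. The 7 genes were chosen from these same cells, so their values describe the members and support nothing further.

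The study measured single-cell transcriptomes of the cells other than adipocytes (the stromal vascular fraction) that Liberase digestion frees from fat, and its title asks how macrophages and fibroblasts communicate in fat fibrosis of obesity. All mice were male C57BL/6J with the genotype given as WT, and were fed a standard diet over 16 weeks, or else a high-fat one over 8 or 16 weeks. Suspensions were marked with hashtag antibodies at 2.5 µg/ml and pooled, and 20000 cells were loaded on a BD Rhapsody cartridge for TAS-Seq, an amplification method for whole-transcriptome libraries. The sources used here do not give the age of the mice or how many stood behind each suspension. The pool gave 1 transcriptome library and 1 hashtag library, so there was 1 sample without a replicate, and no p-value was computed. The labels tie no hashtag to a diet. The 9 hashtag populations, named A0301 to A0305 and A0307 to A0310, are therefore given by their own values and are not compared as diets. Cells of 1 population share their animals and are not replicates.

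As background, carboxypeptidase E (Cpe) trims basic residues from the ends of peptide hormones in secretory granules, and Hmga2 is an AT-hook protein that bends DNA and is abundant in embryonic and tumour cells. Sox4 is a transcription factor of progenitor cells, Rasgrp3 loads Ras and Rap proteins with GTP, Pcp4l1 is a small relative of a calmodulin-binding protein, Map2 binds microtubules in neurons, and Pcdh7 is a protocadherin of the cell surface. Macrophages of obese fat are known to include resident cells, cells recruited from Ccr2-positive monocytes, and lipid-associated cells that express Trem2, Lpl and Cd9.

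The 7 genes lie on 6 chromosomes. In GENCODE M21 coordinates on GRCm38, Cpe spans chr8:64592542-64693054 on the minus strand, Hmga2 chr10:120361275-120476469 on the minus strand, Sox4 chr13:28948919-28953713 on the minus strand and Pcp4l1 chr1:171173262-171196268 on the minus strand. Rasgrp3 spans chr17:75435896-75529054, Map2 chr1:66175273-66442583 and Pcdh7 chr5:57717967-58133230, all on the plus strand. The stretches just upstream of the annotated starts are printed for 4 of these genes, to show the letters that precede genes read in the same cells. Sequences are from RefSeq (GRCm38.p6), written 5′ to 3′ along each gene's strand. Capitals mark a GC box (GGGCGG) or a CCAAT box (CCAAT), searched on both strands.
Hmga2, chr10:120476470-120476719, minus strand: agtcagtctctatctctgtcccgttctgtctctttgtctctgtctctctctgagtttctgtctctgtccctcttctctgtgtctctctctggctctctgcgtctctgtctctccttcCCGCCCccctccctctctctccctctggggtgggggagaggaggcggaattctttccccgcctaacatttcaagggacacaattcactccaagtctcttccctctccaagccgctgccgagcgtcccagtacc
Sox4, chr13:28953714-28953949, minus strand: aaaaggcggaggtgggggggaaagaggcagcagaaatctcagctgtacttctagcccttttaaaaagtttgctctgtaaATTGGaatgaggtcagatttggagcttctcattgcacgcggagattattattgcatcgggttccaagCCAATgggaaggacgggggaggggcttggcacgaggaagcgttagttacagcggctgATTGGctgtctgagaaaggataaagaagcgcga
Pcp4l1, chr1:171196269-171196518, minus strand: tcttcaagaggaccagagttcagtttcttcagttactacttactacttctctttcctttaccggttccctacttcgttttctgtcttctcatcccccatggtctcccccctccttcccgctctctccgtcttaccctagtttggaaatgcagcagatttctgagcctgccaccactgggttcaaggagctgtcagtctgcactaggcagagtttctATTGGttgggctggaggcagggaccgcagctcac
Map2, chr1:66175079-66175272, plus strand: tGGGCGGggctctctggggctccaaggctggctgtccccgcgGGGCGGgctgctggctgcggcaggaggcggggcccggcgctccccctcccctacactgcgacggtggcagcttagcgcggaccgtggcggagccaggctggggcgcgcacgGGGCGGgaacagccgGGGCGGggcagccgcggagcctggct
RefSeq promoters, the 250 bases before to 50 bases after each start, matched 6 of the 7 genes by symbol, and Cpe had no entry. Over those whole windows, Map2 held 5 GC boxes and Hmga2 held 1, while 35.7% of 32851 mouse promoters held at least 1. Sox4 held 4 CCAAT boxes and Pcp4l1 held 1, against 37.4% of promoters with at least 1. A TATA box (TATAAA) stood in the Pcp4l1 window and the first Rasgrp3 window, as in 13.6% of promoters. A second Rasgrp3 window, at another start, did not hold it. The letters GAGGAA, a core bound by the macrophage factor PU.1, occurred once in the Sox4 window and at 2 places in the first Rasgrp3 window, against 28.3% of promoters. A match describes the letters only.

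The members were checked against macrophage markers. Cd68, a lysosomal membrane protein of macrophages that the rule did not use, stood at 2138 CPM in the members and 1652 CPM in the others. Of 13 measured macrophage markers outside the rule, 12 were within 2-fold between the groups. Lyz2 was lower in members, at 5459 against 12272 CPM. Of all genes compared below, 1.53% were at least 2-fold higher and 1.58% at least 2-fold lower, so most genes were within 2-fold too. Among the 13 markers, 8 had ratios of members over others above 1 and 5 below, with Mertk at 0.66, Ctss at 0.66 and Cd14 at 0.69. Both groups were selected on the macrophage genes of the rule, of which Adgre1 (F4/80) was at 724 CPM against 579 CPM, C1qa at 1444 against 1099 CPM, Csf1r at 655 against 707 CPM and Mrc1 at 523 against 578 CPM. The genes of the name Cpe Hmga2 Sox4 macrophages were not all common in it: Cpe was on in 89.8% of members, Sox4 in 47.1% and Hmga2 in 27.6%. Members were also sequenced more deeply, with a median of 107784 reads (range 5637 to 542087) and 5064.5 genes per cell, against 63463.5 reads and 3658 genes in the others. Mitochondrial genes took a median of 4.35% of reads in members and 4.79% in others. All 420 member barcodes were found in the hashtag library, and the strongest hashtag matched the authors' call in 98.8% of members. A doublet caller, Scrublet, marked 4 members (0.952%) and 0.670% of the others.

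Each of the 7 genes was many times higher in members by the way they were chosen. Cpe stood at 636 CPM (95% Poisson interval 629 to 643) in the summed reads of the members and 62.2 CPM in the others. Hmga2 was at 113 against 5.54 CPM, Sox4 at 134 against 12.6 CPM, Pcp4l1 at 172 against 14.3 CPM and Rasgrp3 at 132 against 15.7 CPM. Map2 was at 73.5 against 3.44 CPM and Pcdh7 at 253 against 46.0 CPM. All intervals here cover counting error only. Those on levels count reads and are too narrow, since reads of 1 molecule are not independent, and those on shares treat cells as independent although cells of 1 population share animals. For Cpe and Hmga2 the table holds no value from 1 to 5, so a 0 can stand for a few reads. With each 0 raised to 5 reads, the 20.3-fold difference of Hmga2 became 2.11-fold and the 10.2-fold difference of Cpe became 5.56-fold.

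Among the 2956 non-cycling macrophages, 1542 had none of the 7 genes on, 662 had 1, 332 had 2, 171 had 3, 120 had 4, 71 had 5, 46 had 6 and 12 had all 7. The counts ran down without a gap at the threshold. Cells with exactly 3 on held 448 CPM of Cpe, 79.8 CPM of Sox4, 103 CPM of Pcp4l1 and 34.1 CPM of Hmga2. Cells with exactly 2 on, just outside the rule, held 226 CPM of Cpe, 42.3 CPM of Sox4, 48.6 CPM of Pcp4l1 and 22.5 CPM of Hmga2.

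To see how far the 7 genes were read in the same cells, each gene was counted in macrophages that had at least 3 of the other 6 on. Cpe was on in 84.6% (79.9 to 88.7%) of such cells and in 18.3% of the rest. Pcdh7 was on in 67.9% against 19.5%, Pcp4l1 in 60.9% against 9.36%, and Rasgrp3 in 53.2% against 10.7%. Sox4 was on in 39.5% against 6.53%, Map2 in 30.0% against 2.997%, and Hmga2 in 24.0% (19.9 to 28.5%) against 2.43%. After every cell was thinned to 20000 reads, with shallower cells left out, the chosen cells had Cpe on in 81.8%, Pcp4l1 in 62.5%, Rasgrp3 in 53.0% and Hmga2 in 21.7%. Thinning cannot restore the low values that the table lacks for Cpe and Hmga2, so it does not even out depth for them. The 7 genes were picked because they went together in these cells, so the shares are a description.

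**Figure D1:**
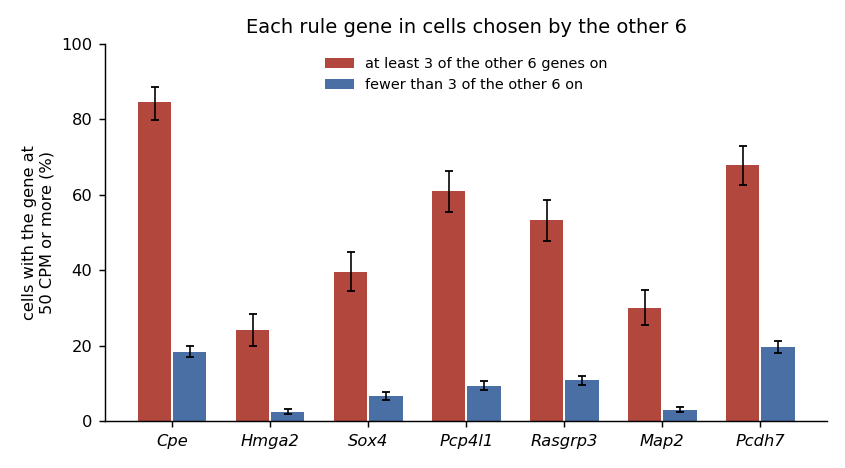
Percent of non-cycling macrophages with each of the 7 genes at 50 CPM or more, in cells with at least 3 of the other 6 genes on (red) and in the remaining cells (blue), with 95% Clopper-Pearson bars. Each red bar stands above its blue bar, from 84.6% against 18.3% for Cpe to 24.0% against 2.43% for Hmga2.

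The members were spread very unevenly over the hashtag populations. In population A0309, 216 of 632 non-cycling macrophages were members, or 34.2% (30.5 to 38.0%). Population A0308 had 122 of 515, or 23.7% (20.1 to 27.6%), and population A0310 had 53 of 493, or 10.8% (8.16 to 13.8%). These 3 intervals, which leave out any spread between animals, did not overlap each other. Populations A0304, A0305 and A0307 had ample macrophages but few members, with 7 of 323 (2.17%), 3 of 393 (0.763%) and 9 of 439 (2.05%). Populations A0301, A0302 and A0303 had few macrophages of any kind, and their shares of 1 in 47 (2.13%), 3 in 48 (6.25%) and 6 in 66 (9.09%, interval 3.41 to 18.7%) are correspondingly loose. The median over the 9 populations was 6.25%. Populations A0308, A0309 and A0310, the 3 with at least 10 members, held 391 members (93.1%), and the remaining 29 came from all 6 of the other populations. Without population A0309 the share over the pool was 8.78%. The non-cycling macrophages of population A0308 had a median of 69704 reads, those of A0309 71458 and those of A0310 95240. With each cell thinned to 20000 reads and shallower cells left out, the shares were 39.4% in A0309, 29.3% in A0308 and 13.2% in A0310. Thinning does not restore the low values that the table lacks for Cpe and Hmga2. The part of depth in the shares was not tested beyond this. Whether the differences in share belong to a diet cannot be told from the labels.

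**Figure D2:**
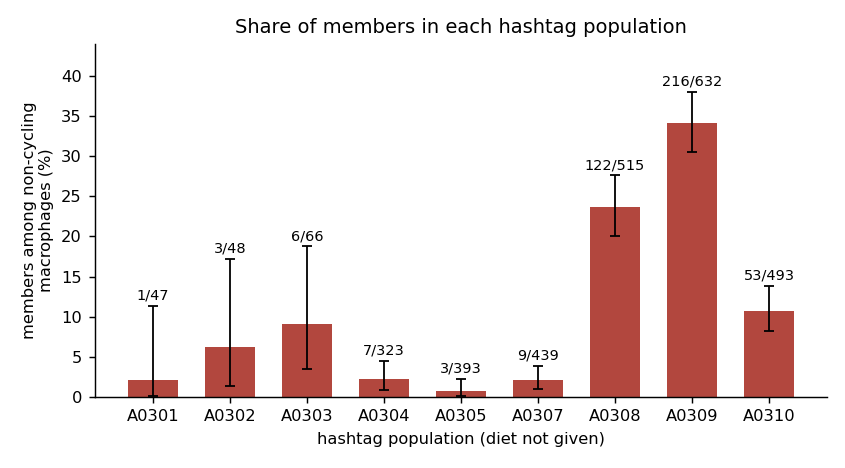
Members as a percent of the non-cycling macrophages of each hashtag population, with 95% Clopper-Pearson bars and the counts above them. Populations A0308, A0309 and A0310 stand at 23.7%, 34.2% and 10.8%, and the other 6 lie between 0.763% and 9.09%.

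The makeup of the 7 genes also varied between populations. Hmga2 stood at 50.5 CPM in members of population A0308, 82.1 CPM in A0309 and 286 CPM in A0310, and was on in 19.7%, 27.8% and 45.3% of them. Map2 ran the other way, at 124, 62.0 and 21.6 CPM, and was on in 51.6%, 31.0% and 13.2% of members. Sox4 was at 118, 175 and 53.9 CPM, and Cpe at 680, 697 and 449 CPM. The others of those populations held 7.05, 9.04 and 7.22 CPM of Hmga2, 121, 148 and 71.6 CPM of Cpe, and 15.9, 36.4 and 5.94 CPM of Sox4. Across these 3 populations the members' levels of Hmga2, Cpe and Sox4 all lay above those of the others, in values the rule used. The rule asks for no single gene, and in population A0304 Hmga2 was at 0 in the 7 members and 2.82 CPM in the others. Over all 9 populations, some resting on 1 to 9 members, the level of Cpe in members ranged from 281 to 1606 CPM and that of Hmga2 from 0 to 451 CPM.

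The 7 genes were little combined in other cell types of the pool. At least 3 of them were on in 10 of 3642 fibroblasts (0.275%) and in 8 of 676 endothelial cells (1.18%). None of 331 T cells had 3 on, and none of 60 B cells did. With 3 cells taken as the limit that a count of 0 allows, the shares in the deposited values could be up to 0.906% and 5%. A 0 of Cpe or Hmga2 can stand for a few reads, which these limits leave out. Mural cells, the pericytes and smooth muscle of vessels, were an exception with 11 of 57 (19.3%), carried by Pcp4l1 at 972 CPM and Cpe at 444 CPM. Of 44 mesothelial cells, 4 (9.09%) had 3 on, and their Sox4 stood at 151 CPM. Hmga2 was on in 0.302% of fibroblasts and was not on in any endothelial, mural or mesothelial cell. Since the table holds no Hmga2 value from 1 to 5, those zeros set no limit on the share of cells that express it. Fibroblasts had a median of 38731.5 reads, endothelial cells 14508 and mural cells 25352, all below the members.

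Markers of other cell types were therefore summed in the members. The 8 mural markers summed to 68.2 CPM in members and 29.9 CPM in others, led by Rgs5 at 34.5 against 9.04 CPM, with 15.7, 89.0 and 25.2 CPM in members of populations A0308, A0309 and A0310. In 5 members (1.19%) at least 3 mural markers were on. Without cells at 100 CPM or more of mural markers, 388 members remained and were 13.8% of the macrophages left. The 11 fibroblast markers summed to 875 CPM in members and 758 CPM in others, of which Gsn, a gene macrophages also express, gave 583 and 432 CPM. At least 3 fibroblast markers were on in 174 members (41.4%) and in 35.9% of the others. Endothelial markers summed to 49.1 against 46.7 CPM, and neuronal markers to 2.75 against 2.66 CPM with Syt1 at 0. Haemoglobin genes were all at 0 in members. Eosinophil markers summed to 22.4 against 9.95 CPM, almost all of it Ccr3, with Prg2 at 0.

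Genes outside the rule were then compared between the members and the others by the summed reads of each group, with 1 CPM added before the ratio. A gene was called at a difference of at least 2-fold with at least 20 CPM in 1 group. Of 6335 genes that reached this level, 97 (1.53%) were higher in the members and 100 (1.58%) were lower, and the median ratio of all of them was 1.05. With 1 sample these are sizes, not tests. In the same direction in each of populations A0308, A0309 and A0310 were 88 of the higher and 83 of the lower genes. Computed within those 3 populations, as the geometric mean of their ratios, 63 genes (0.994%) were higher and 88 (1.39%) lower. Of the genes called over the pool, 51 higher and 74 lower ones also passed 2-fold there. Populations A0308, A0309 and A0310 held 391 of the 420 members but 1249 of the 2536 others, so a ratio over the pool also compares populations. Beside a pooled ratio, the ratio within populations is therefore given where it differs by over 1.5 times or ends a call.

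The cell cycle gene Ccnd1, cyclin D1, which drives cells out of G1, was among the higher genes. Members of populations A0308, A0309 and A0310 held 468, 319 and 513 CPM of Ccnd1, and the others of the same populations held 193, 111 and 100.4 CPM. Every member level lay above every level of the others. Over the pool Ccnd1 stood at 401 against 95.7 CPM, a 4.16-fold difference, or 2.90-fold with gaps in its low values filled, and it was on in 66.4% of members and 23.6% of others. Its level in cycling macrophages was 219 CPM, below that of the members. Resident-type and recruited-type macrophages, by the marker rules given with their lists, held 71.9 and 51.2 CPM. Cdkn2a, which encodes inhibitors of the same step of the cycle, was at 15.9, 25.8 and 14.3 CPM in members against 5.91, 6.38 and 2.54 CPM in others, a 6.13-fold difference over the pool and 3.38-fold within populations. It was on in 9.29% of members, so its level comes from few cells.

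Named genes are given by textbook role, an order made after their values were seen. Pgm5, a protein of adhesion sites related to phosphoglucomutase, was at 77.5, 74.3 and 18.6 CPM in members of populations A0308, A0309 and A0310 and at 9.31, 12.5 and 4.89 CPM in the others. Its groups did not overlap and its ratio was 9.56 over the pool and 5.20 within populations. The adhesion protein Cadm1 was at 405, 359 and 204 CPM against 176, 193 and 107 CPM, also without overlap, with a ratio of 2.01 within populations against 3.35 over the pool, and was on in 77.9% of members and 31.1% of others. Nes, the intermediate filament nestin, was at 137, 157 and 136 CPM against 37.4, 58.8 and 50.7 CPM. The adhesion protein gene Nrcam had a ratio of 5.08, Fat3, an atypical cadherin, 4.61, and Frmd6 3.63.

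Fgf13, an intracellular fibroblast growth factor homologue that binds sodium channels, stood at 46.2 against 6.17 CPM (ratio 6.57), the calcium channel subunit Cacna1a at 21.9 against 3.93 CPM (4.65), and the potassium channel Kcnj2 at 27.5 against 8.53 CPM (2.99). Within populations the ratios of Fgf13 and Cacna1a were 3.87 and 3.06. Hspb7, a small heat shock protein of muscle, was at 90.1, 115 and 52.6 CPM in members of the 3 populations against 21.6, 33.7 and 13.01 CPM in others. Fgf13 and Kcnj2 overlapped between groups across populations, while Cacna1a and Hspb7 did not. Each gene was on in a minority of members, from 14.0% for Cacna1a to 33.3% for Hspb7.

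Angpt2, a ligand that opposes Tie2 signalling in vessels, was at 42.7, 68.8 and 20.7 CPM against 13.2, 21.8 and 8.40 CPM. The kinase Frk was near 4 CPM in the others of each population and between 19.3 and 25.6 CPM in the members. Npl and Ccr3 were above 2-fold over the pool but at 1.97 and 1.72 within populations. Of the 25 genes that the naming rule picked as higher, 18 had levels in populations A0308, A0309 and A0310 that did not overlap between members and others, which was so for 15.7% of all genes compared. All 25 were picked for being higher in each of these populations, so that count follows in part from the choice.

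Of the genes lower in members, Ccr2, the receptor that draws monocytes into tissue, ranked first. It stood at 19.2, 8.96 and 13.5 CPM in members of populations A0308, A0309 and A0310 and at 121, 96.4 and 68.7 CPM in the others, with no overlap. Over the pool the others held 9.70 times the members' level, and Ccr2 was on in 4.76% of members and 27.0% of others. Ear2, a ribonuclease of the eosinophil-associated family, was at 6.28, 11.3 and 21.0 CPM against 105, 100.2 and 87.5 CPM, and the others held 6.87 times the members' level with gaps filled. Its ratio of members over others was 0.05 over the pool and 0.13 within populations. Retnla, a secreted protein of alternatively activated macrophages, was at 469, 302.6 and 6.41 CPM against 1102, 1178 and 79.9 CPM, and its groups overlapped. Over the pool the others held 10.04 times the members' level, which became 5.44 with gaps filled and 4.64 within populations. Fgr, a Src-family kinase, was at 2.55, 3.71 and 6.41 CPM against 21.3, 15.2 and 38.1 CPM. The endothelin receptor Ednrb and the retinoic acid enzyme Aldh1a2 were 8.12 and 6.49 times higher in the others over the pool. Their ratios of members over others within populations were 0.16 and 0.47. Of the 15 named lower genes, 10 did not overlap between groups, against 7.28% of all genes compared. All 15 were picked for being lower in each of populations A0308, A0309 and A0310, so that count too follows in part from the choice.

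The 29 members from the other 6 populations were read as a group against the others of those populations. All 25 higher genes were above and all 15 lower genes were below there as well. Ccnd1 was at 425 CPM in these members and 62.3 CPM in the others, Cadm1 at 248 against 50.0 CPM, and Ccr2 at 29.1 against 201 CPM. The named genes were ranked on pooled values that include these 29 cells and the others of the same populations. The share of all genes with the same direction there was not counted, so the agreement is no replication.

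**Figure D3:**
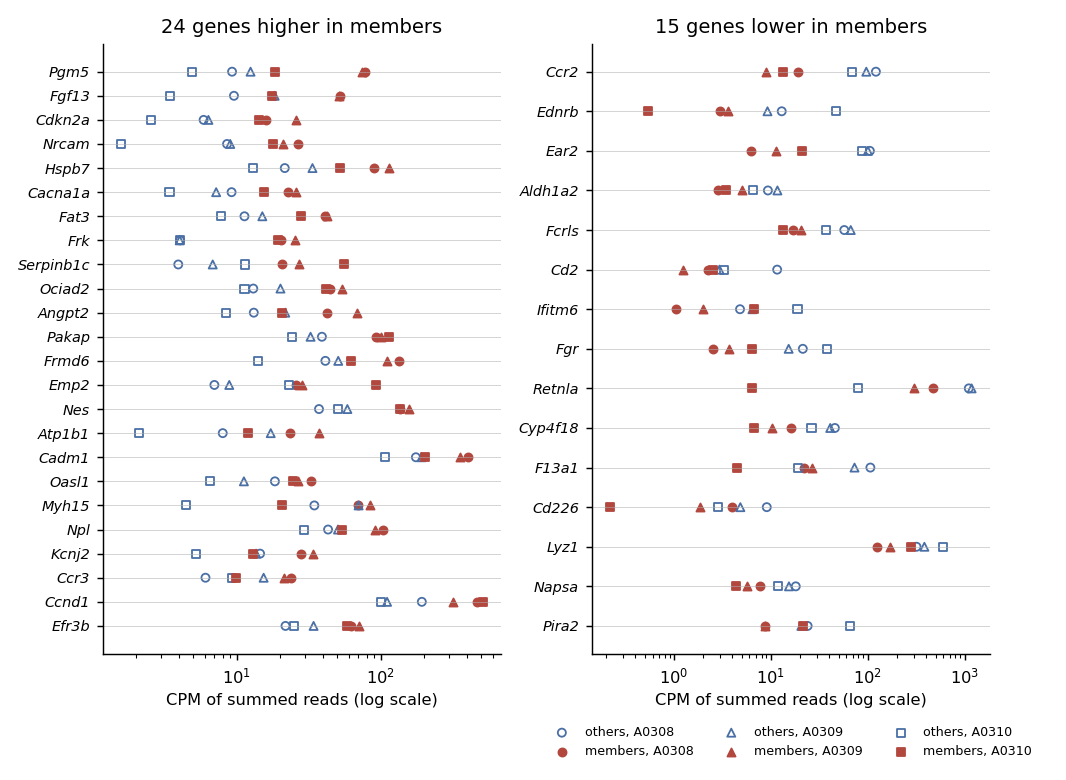
CPM of summed reads, on a log axis, for 24 of the 25 named genes higher and the 15 lower in members, with filled red marks for members and open blue marks for the other non-cycling macrophages of hashtag populations A0308 (circles), A0309 (triangles) and A0310 (squares). Each red mark lies to the right of the blue mark of its own population for the higher genes and to the left for the lower ones, and 18 and 10 of the genes keep all red and all blue marks apart.

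Macrophage states were read from gene lists. MHC class II genes, which present antigen to T cells, were lower throughout: 7 of 7 were called lower, against 1.58% of all genes compared, with a median ratio of 0.419. Cd74, the invariant chain, stood at 4686, 2642 and 1572 CPM in members of populations A0308, A0309 and A0310 against 10220, 7224 and 2863 CPM in the others. Within each population the member level was the lower, while the groups overlapped across populations because A0310 was low in both. H2-Eb1 stood at 1767, 723 and 401 CPM against 4781, 2833 and 937 CPM, and its regulator Ciita was at 21.7 against 53.2 CPM over the pool. Low levels were not particular to the members. Cd74 stood at 3064 CPM in members, 3460 CPM in Mfge8 Acp5 Ctsk macrophages (others with all 3 genes on) and 2790 CPM in cycling macrophages. Resident-type and recruited-type macrophages held 11312 and 14602 CPM of Cd74. H2-Eb1 was at 987 CPM in members and 1074 CPM in Mfge8 Acp5 Ctsk macrophages.

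Genes of monocyte-derived recruited cells had 6 of 8 called lower and none higher, against 1.58% and 1.53% of all genes, with a median ratio of 0.219. Besides Ccr2 and Retnla these were Fn1, Plbd1, Ifitm6 and Thbs1. Retnla was not particular to recruited-type macrophages, whose rule uses it. It stood at 19350 CPM there and at 26115 CPM in resident-type macrophages. Mfge8 Acp5 Ctsk macrophages held 20.9 CPM of Ccr2 and 329 CPM of Retnla, against 14.0 and 368 CPM in members. Fn1, fibronectin, was at 222 against 634 CPM over the pool but at 279 against 237 CPM in population A0309, and its ratio within populations was 0.79. By the rule of at least 3 of Ccr2, Retnla, Plbd1 and Fn1 on, 5 members (1.19%) were recruited-type, against 371 (14.6%) of the others.

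The resident macrophage list split. Of 14 genes, 6 were lower and 1 was higher, with a median of 0.7095. The folate receptor Folr2 was the higher one, at 1106, 1130 and 518 CPM in members against 532, 577 and 259 CPM in others, and it stood at 1323 CPM in resident-type macrophages. The hyaluronan receptor Lyve1 was at 2.56 against 42.1 CPM (981 CPM in resident-type cells), a ratio of 0.44 with gaps filled and 0.35 within populations. Cd163 was at 16.3 against 36.1 CPM, and the lectin Cd209f at 0.240 against 22.4 CPM, a ratio of 0.29 within populations. Pf4 and Stab1, at ratios of 1.75 and 1.76, and Selenop, at 0.91, were within 2-fold, and Stab1 was at 1.04 within populations. Only 2 members (0.476%) met the resident-type rule, at least 3 of Lyve1, Cd209f, Cbr2, F13a1, Cd163 and Timd4 on, against 193 (7.61%) of the others.

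Lipid-associated macrophage genes were nearly all within 2-fold, as were most genes compared. Of 19 genes, 1 was called higher and none lower, against 1.53% and 1.58% of all genes compared. The median was 1.22, against 1.05 for all genes compared, and 15 lay above 1. Lipoprotein lipase Lpl stood at 10749, 10638 and 9437 CPM in members of populations A0308, A0309 and A0310 against 6196, 6396 and 5969 CPM, without overlap and within 2-fold. Trem2, a lipid receptor, had a ratio of 1.37, Cd9 of 1.60, Gpnmb of 1.08, and Apoe of 0.71. Spp1, osteopontin, was the called gene at 525 against 239 CPM, and at 1.82-fold with gaps filled and within populations, which ends the call. The overlap with Mfge8 Acp5 Ctsk macrophages, which had all 3 of those genes on, was 47 members (11.2%, 8.34 to 14.6%), against 249 (9.82%, 8.69 to 11.0%) of the others, and these intervals overlap.

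Ratios of the growth-related lists lay mostly above 1, with few calls. Over all genes compared the median ratio was 1.05 and 1.53% were called higher. The share of all genes with a ratio above 1 was not counted, so the counts above 1 have no background. Of 16 DNA replication and mitosis genes, 14 had ratios above 1 and the median was 1.64, but Mcm5 alone was called, at 52.3 against 24.6 CPM, and its ratio of 2.08 became 1.99 within populations, where no gene of the list was called. Mki67, which the rule used, was at 24.8 CPM in members and 24.2 CPM in others. Of 9 G1 regulators, Ccnd1, Cdk6 and Cdkn2a were called higher, against 1.53% of all genes compared. Cdk6, a partner of D cyclins, was at 110, 115 and 89.0 CPM against 55.6, 67.7 and 67.9 CPM. Its ratio was 2.02 over the pool and 1.63 within populations, which ends its call. The oncofetal list held 3 measurable genes beside Hmga2: Hmga1 had a ratio of 1.77, Igf2bp2, an mRNA-binding protein of embryonic tissue, 1.99 (2.25 within populations), and Plagl2 1.14. Of 13 Ras and ERK regulators, all 13 lay above 1 with a median of 1.21, and Rasa1, a brake on Ras, was called at 620, 568 and 542 CPM against 313.4, 351 and 205 CPM. Dusp4 and Spred1, other negative regulators, were at 1.98 and 1.93.

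Among 29 macrophage transcription factors the median was 0.890. Etv5, an Ets factor, was called higher at 28.49 against 11.955 CPM, and Batf, Batf3 and Bhlhe40 lower at ratios of 0.36, 0.35 and 0.40, the last at 0.60 within populations. Spi1, which encodes PU.1, stood at 404 against 350 CPM. In the list of Sox factors and the list of protocadherins and cadherins, no gene outside the rule reached the level for comparison. The atypical cadherin Fat3, named above, was not in these lists.

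In genes of processing, matrix and signalling, the peptide hormone list around Cpe had 3 measurable genes and no call, with Cpd at 1.58, Pam at 1.37 and Furin at 0.77. Of 10 growth factors none was called and the median was 1.34, with Pdgfa at 1.66 and Pdgfb at 1.61. The urokinase gene Plau was at 188, 140 and 173 CPM in members against 111, 83.6 and 31.0 CPM, without overlap. Mmp12, macrophage elastase, was at 1614 against 3277 CPM over the pool, yet at 1051 against 564 and 1498 against 1160 CPM in populations A0308 and A0309, and at 3346 against 7356 CPM in A0310. Its ratio within populations was 1.03. Among cytokines, Il1b, Ccl7 and Clec4e were lower at ratios of 0.43, 0.30 and 0.42. Il1b was at 0.56 with gaps filled, which ends its call, and at 0.28 within populations, and Cxcl14 was 2.66-fold higher as deposited but at 0.87 with gaps filled. Adamts1 likewise went from 6.45 to 0.95, and was at 2.83 within populations.

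Of 23 lysosome genes, 1 was called higher and 1 lower, which was Ctsh at 179 against 435 CPM, with a median of 1.17. Lyz2, lysozyme, was the called gene of 13 macrophage markers, at 4017, 5162 and 8007 CPM in members against 8334, 10322 and 16468 CPM in others. Lists of 8 iron, 17 cholesterol and fatty acid, 15 glycolysis and hypoxia, 17 immediate early and heat shock and 5 nuclear RNA genes had no call in either direction. Single calls were Gsr, lower among 12 antioxidant genes at a ratio of 0.49 but 0.62 within populations, Fcgr2b, lower among 17 scavenger receptor genes, Oasl2, higher among 5 interferon-induced genes at 2.04-fold but 1.23-fold within populations, and Tubb2b, higher among 8 microtubule and calmodulin-binding genes. Of the 298 genes compared in all lists, 14 (4.70%) were higher and 31 (10.4%) lower, against 1.53% and 1.58% of all genes compared. The lists were chosen with earlier results of these data known. Without population A0309, 23 were higher.

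**Figure D4:**
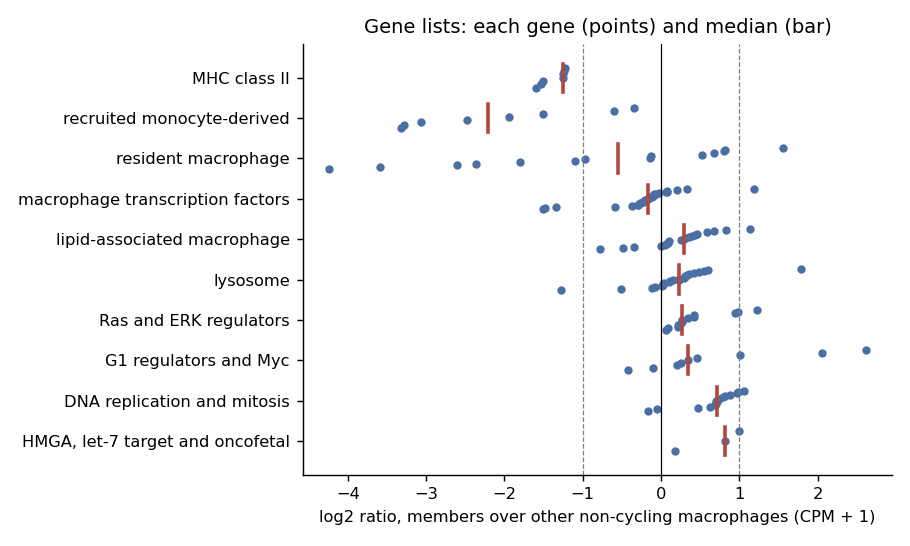
Log2 ratio of members over the other non-cycling macrophages for each gene (points) of 10 lists, with the median as a red bar and dashed lines at 2-fold. All 7 MHC class II genes lie left of the lower line, and 18 of 19 lipid-associated genes lie between the lines.

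Genes outside the rule were also followed across the number of the 7 genes on, within populations A0308, A0309 and A0310. The number was counted at full depth, and the levels were taken after thinning each cell to 20000 reads. From 0 to 5 or more genes on, in groups of 516, 351, 241, 153, 110 and 120 cells, Ccnd1 stood at 70.0, 108, 186, 240, 377 and 477 CPM. Folr2 stood at 231, 468, 736, 865, 976 and 1025 CPM. Both kept climbing on either side of the threshold of 3. Trem2 was highest in cells with 4 on, at 1937 CPM, and lower again at 1705 CPM with 5 or more.

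In the same groups Cd74 stood at 9061, 7656, 6244, 5170, 3336 and 3159 CPM, and H2-Eb1 went from 4164 to 988 CPM. Lyz1 went from 573 to 158 CPM. Ccr2 was at 183, 82.1, 20.3, 18.6 and 2.3 CPM and then at 32.1 CPM in the last group, so it did not fall at every step. Median reads before thinning went from 63414 in cells with none on to 129614 in those with 5 or more. With the number counted on the thinned reads too, a step added after seeing the data, Ccnd1 stood at 59.9, 104, 182, 218, 379 and 484 CPM and Cd74 at 9227, 7613, 6930, 4925, 3655 and 2964 CPM. Folr2 went from 240.2 CPM with none on to 1044 CPM with 4 and 1032 CPM with 5 or more. Median reads before thinning still went from 61860 to 130595 across those groups, so cells with more of the genes on also had more reads, and the part of that in the levels was not tested.

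**Figure D5:**
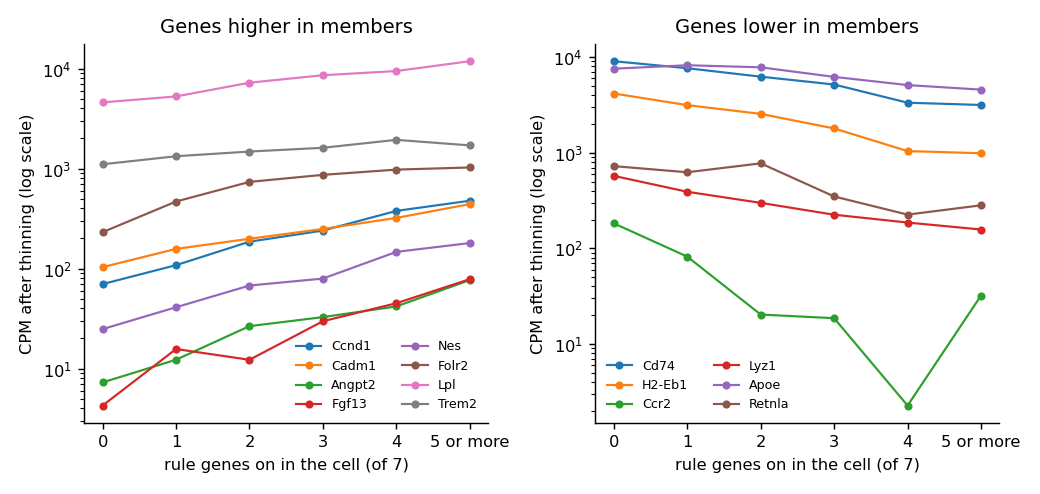
CPM after thinning to 20000 reads per cell, on a log axis, for genes outside the rule in macrophages of populations A0308, A0309 and A0310 with 0 to 5 or more of the 7 genes on at full depth. Ccnd1 goes from 70.0 to 477 CPM and Cd74 from 9061 to 3159 CPM, and Trem2, Fgf13, Apoe, Retnla and Ccr2 do not move one way at every step.

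The rule leaves cycling cells out, so the same 7 genes were counted in the 213 cycling macrophages. At least 3 of the 7 were on in 75 of them, 35.2% (28.8 to 42.0%), against 14.2% of non-cycling macrophages. The share was 54.2% against 23.7% in population A0308, 51.8% against 34.2% in A0309 and 31.1% against 10.8% in A0310, higher in cycling cells each time. The intervals of the cycling and non-cycling shares did not overlap in A0308 (39.2 to 68.6% against 20.1 to 27.6%) or A0310 (18.2 to 46.6% against 8.16 to 13.8%), and met almost end to end in A0309 (38.0 to 65.3% against 30.5 to 38.0%). Cycling cells had a median of 151581 reads against 70069, and with all cells thinned to 20000 reads the shares were 36.8% and 17.2%. In cycling cells with 3 or more on, Cpe stood at 472 CPM and Pcp4l1 at 183 CPM.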

How the data were processed

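The transcriptome table deposited by the authors holds whole-number counts per gene and cell, treated here as reads since no collapse to molecules is recorded. The hashtag table deposited by the authors holds counts per hashtag and barcode. Per the submitters' processing notes, processing used Bowtie2 2.4.2, cutadapt 2.10 and R 3.6.3 on GRCm38. How cells were called, background corrected and hashtags assigned is not given in the sources used here. Column names carry the authors' hashtag call, and of 12040 columns, 12 without one were not used and 278 with a doublet call entered no group. The 11750 single-hashtag cells held 6.04e+08 reads, with a median of 37204 and a minimum of 5169.

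Some genes lack low values, so an alternative raised each 0 to just under (by 1 read) the lowest nonzero value of that gene. CPM are from summed reads per group, with a pseudocount of 1 CPM, and intervals are exact. Of 29417 symbols, 28350 (96.4%) matched GENCODE M21. Python 3.11.15, numpy 2.4.6, pandas 2.3.3, scipy 1.17.1 and scanpy 1.11.5 (Scrublet) were used, and figures were drawn with matplotlib 3.10.9. Named genes are the 25 higher and 15 lower genes with the most extreme ratio (the smaller of deposited and gap-filled), at 20 CPM, 2-fold, and in 1 direction in every population with at least 10 members, plus examples from 26 lists. For 1 of the higher genes the values are not reported here. Members, lists and rules were chosen with earlier results of these data known. The scripts were tested on simulated data. Alternatives varied the threshold, depth, filters, comparator and pseudocount, and left out each population. The work had been planned for molecule counts, and the planned descriptions were kept.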

Additional observations from a re-analysis of the deposited data

Results flagged for a closer look

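For 16 measures the highest and lowest hashtag population was compared with the next one, relative to the range of all 9 populations. Chance flags about 1 such group in 20. Cpe in the members of population A0301 stood apart at 1606 CPM, and Pcp4l1 in the same population at 728 CPM. Population A0301 has 1 member, so both values come from a single cell. Sox4 in the other non-cycling macrophages stood apart in population A0309, at 36.4 CPM. The share of members did not stand apart in any population by this measure. An extreme population is set only against the next one, so the measure cannot judge a spread with several high populations.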

How the results depend on the processing

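The values are of 1 pool, so no setting gives a replicate check. Intervals on levels count reads and are too narrow, and those on shares leave out the spread between animals. No paired analysis was possible because the 2 libraries, the samples of the labels, are of 1 pool and share only the number 1. Members and others of the same hashtag population were compared by their ratios, with no test. The share of members, 14.2%, was 11.4% with genes on at 100 CPM, 8.42% with at least 4 of 7 on, 25.4% with at least 2 on and 16.9% after thinning, and 8.78 to 16.3% with 1 population left out, lowest without A0309. The highest population share, 34.2%, was 27.1%, 20.6%, 51.9% and 39.4% under those 4 settings, and the lowest, 0.763%, was 4.26% with at least 2 on. The order A0309, A0308, A0310 held in 8 of 9 settings, and with at least 4 on population A0303 (7.58%) came before A0310 (6.69%). The non-cycling share beside the cycling one was 17.2% after thinning.

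Over the 197 called genes (97 higher), the count was 339 (180 higher) against others with none of the 7 on, 100 (46) at 50 CPM, 552 (243) with no minimum and 74 (29) at 3-fold. It was 63 higher and 88 lower within populations A0308 to A0310, and 85 to 122 higher and 94 to 111 lower with 1 population left out. Within populations, 51 and 74 of the called genes were shared, an alternative chosen after seeing the data. List calls (14 and 31) were 26 higher against others with none on, and 12 to 23 and 26 to 34 with 1 population left out, the 23 without A0309. Adamts1 (0.950) and Cxcl14 (0.873) reversed with gaps filled, and Mmp12 (1.03) within populations. The causes were not tested.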

Other observations

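Columns that entered no group held few cells of this kind. Of 254 cells with a doublet call and at most 25% mitochondrial reads, 14 were non-cycling macrophages and 0 met the rule for members, which allows a share of up to 21.4% with 3 cells as the limit of a count of 0. Of 65 non-cycling macrophages above the mitochondrial limit, 1 (1.54%) met it.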
